A study of Mus musculus with 24 samples.

Results

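The Wnt, Notch, Hedgehog and FGF signalling genes described here were the 35 genes, of 750 with values in this mouse mammary tumour data set, whose symbols begin with Wnt, Fzd, Fgf, Notch, Jag, Dll, Dkk, Sfrp, Hes or Hey, together with Ctnnb1, Apc, Axin1, Mfng, Maml2, Ror2, Ihh, Tcf3 and Id4. No measured value entered the choice. Total RNA of 24 mammary tumour-derived transplants (mTDT, tumours passed on by transplantation) grown in BALB/c host mice was counted with NanoString probes, which are read one molecule at a time without amplification. The labels give each tumour an immune infiltrate class, with 13 inflamed, 4 excluded and 7 desert libraries, and a code, tied to the tumour's origin, that begins with a letter. Letter A had 5 libraries, letter C 6, letter F 2, letters G and H 4 each and letter L 3. Of all codes, 19 libraries carried the form F2 and 5 the form 0, a difference that the labels do not explain. They give no genotype, age or treatment of the tumours, and state neither the basis of the class nor whether libraries of one group came from separate tumours. The p-values below therefore measure only the spread between these libraries.

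Wnt ligands are secreted glycoproteins that bind Frizzled receptors. In the canonical branch they stabilise beta-catenin, which Apc and Axin1 otherwise mark for destruction, and in the non-canonical branch ligands such as Wnt5a act through co-receptors such as Ror2. Notch receptors are cleaved when a Jagged or Delta-like ligand on a neighbouring cell engages them, and the freed intracellular part, with Rbpj and Mastermind-like coactivators, turns on Hes and Hey genes. Both pathways act in mammary stem and progenitor cells and in the stroma and vessels of breast tumours.

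Depth set which genes could be read. The recovered total count, obtained by undoing each library's scaling factor, ran between 5262 and 1110314, and 16 libraries with at least 100000 counts (8 inflamed, 3 excluded, 5 desert) were compared. The other 8 held at most 46603 counts, and 2 of those, desert 3 and desert 4, differed by less than the sampling noise (chi-square test of counts over genes, p = 0.565) and were counted as 1 sample. A detection limit was set in each library at the mean plus 2 SD of the log2 values of the 75 genes with the lowest counts, which gave 1.67 to 4.32 in the deep libraries and 5.14 to 8.40 in the shallow ones. Between 14 and 29 of the 35 genes exceeded it in a deep library, and between 0 and 16 in a shallow one. All levels below are the deposited log2 normalised counts. Probes differ in efficiency, so levels are compared between libraries for 1 gene and not between genes.

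Deep classes and letters overlapped in part. The inflamed libraries were 2 of letter A, 2 of G, 2 of H and 2 of L, the excluded ones 1 of A and 2 of C, and the desert ones 2 of C, 2 of F and 1 of G. Inflamed 3 and inflamed 4 shared 1 code of letter A, and excluded 2 and excluded 3 shared 1 code of letter C, so the 16 deep libraries stood for 14 codes. Although the tissue is labelled as mammary tumour, 3 of the 5 epithelial genes with values exceeded the limit in few or none of the 13 deep libraries outside letter A, namely Epcam in 4 and Cdh1 and Lamb3 in 0, while Erbb2 did in 5 and Esr1 in all 13. Epcam, an epithelial adhesion molecule, measured 10.96 in excluded 1, 10.09 in inflamed 3 and 10.21 in inflamed 4, against 1.05 to 4.39 in the other 13. Cdh1, which encodes E-cadherin, measured 3.40, 7.15 and 7.36 in those letter A libraries and at most 3.48 elsewhere. Lamb3, a laminin chain, measured 6.16, 4.11 and 4.16 in letter A and at most 2.93 elsewhere. The receptor tyrosine kinase gene Erbb2 measured 4.52, 3.86 and 3.83 in letter A, against 1.27 to 3.07. Esr1, which encodes the oestrogen receptor, measured 4.16, 5.02 and 5.26, within the 3.67 to 6.01 of the others. These are bulk samples, in which fewer cells of a type and less RNA per cell cannot be told apart.

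The regions just before the start sites of Notch1, Jag2 and Id4 are shown because the receptor and its ligand were both called in letter A and Id4 had the largest SD of all expressed genes. Each is the 250 bases upstream of the RefSeq start in GRCm38.p6, written on the gene's strand. Notch1 lies at chr2:26503823-26504072 on the minus strand, Jag2 at chr12:112929496-112929745 on the minus strand and Id4 at chr13:48260866-48261115 on the plus strand. Capitals mark a match to TGGGAA, the core letters that Rbpj binds, read here on the opposite strand.
Notch1: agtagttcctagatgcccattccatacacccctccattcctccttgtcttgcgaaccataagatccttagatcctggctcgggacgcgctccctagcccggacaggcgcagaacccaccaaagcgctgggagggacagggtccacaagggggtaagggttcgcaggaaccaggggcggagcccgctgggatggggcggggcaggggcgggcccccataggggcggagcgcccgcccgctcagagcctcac
Jag2: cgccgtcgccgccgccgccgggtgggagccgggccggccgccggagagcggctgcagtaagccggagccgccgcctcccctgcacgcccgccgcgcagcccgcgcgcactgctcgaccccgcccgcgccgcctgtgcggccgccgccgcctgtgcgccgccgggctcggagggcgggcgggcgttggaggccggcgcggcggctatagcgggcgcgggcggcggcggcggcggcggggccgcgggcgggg
Id4: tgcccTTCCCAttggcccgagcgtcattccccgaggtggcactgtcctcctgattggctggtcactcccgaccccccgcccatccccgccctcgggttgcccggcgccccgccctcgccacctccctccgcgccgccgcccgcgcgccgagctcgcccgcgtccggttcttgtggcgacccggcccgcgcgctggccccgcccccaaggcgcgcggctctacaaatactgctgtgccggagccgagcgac
The Jag2 window was 87.2% G and C, the Id4 window 75.6% and the Notch1 window 66%. On either strand, TGGGAA occurred once, in the Id4 window, 245 bases before the start. Neither the TCF/LEF letters CTTTGAT nor the E box CANNTG occurred in any of the 3, so the match overlapped no other motif searched. RefSeq windows were on hand for 23 of the 35 genes, which had 32 windows. TGGGAA was found in 3 of those 32 windows (Id4, Maml2, Wnt5b), against 21.6% of all 32851 promoter windows of this length. CTTTGAT was found in 2 of the 32 (Wnt11, Wnt5b), against 3.21% of all windows. CANNTG was found in 15 of the 32, from 12 genes, against 66.2%. A match of letters is a description and not evidence of a bound site.

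Of the 35 genes, 25 passed their detection limit in 8 or more of the 16 deep libraries and are called expressed here, as were 568 of the 750. In every deep library, 11 were above it, namely Axin1, Ctnnb1, Dll4, Fgfr1, Hes1, Hey1, Jag1, Maml2, Notch1, Notch2 and Sfrp1. The 10 that were not expressed were Dkk1, Fgf13, Fgf9, Fzd9, Ihh, Tcf3, Wnt11, Wnt2, Wnt3a and Wnt4. The 3 marker genes of the list, the canonical ligand Wnt3a, the Hedgehog ligand Ihh and Tcf3, thus gave no usable signal. Wnt3a, Ihh, the secreted Wnt inhibitor Dkk1 and the ligand Fgf9 exceeded the limit in 0 deep libraries, and Tcf3 in 1. Wnt3a had 1 to 26 recovered counts in a deep library, Ihh 5 to 18 and Tcf3 3 to 31. RefSeq lists E2A as a synonym of Tcf3, so this probe's symbol names the E protein and not the Wnt effector Tcf7l1, which once shared the name. Hedgehog signalling was represented by Ihh alone among the 35.

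**Figure D1:**
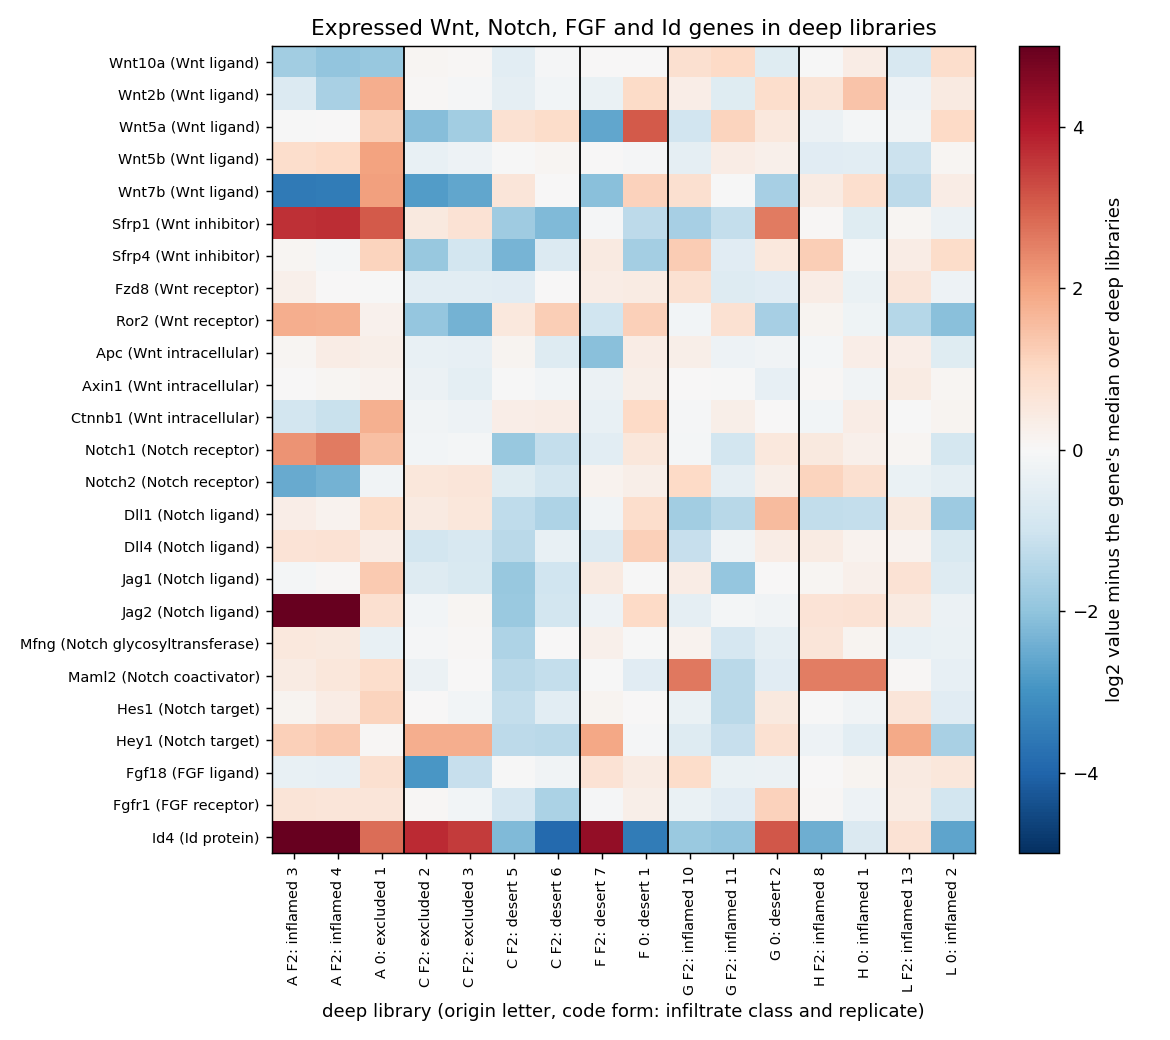
Log2 level of each of the 25 expressed genes (rows, grouped by role) in the 16 deep libraries (columns, grouped by letter, F2 codes left of 0 codes), as the difference from the gene's median over them, with colours ending at 5 log2 units either way. Id4, Jag2, Sfrp1 and Wnt7b show the strongest colours along a row and Axin1 almost none.

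Expressed Wnt ligands numbered 5 of 9. Wnt5a, the main non-canonical ligand, was above the limit in 15 deep libraries and ranged from 3.95 in desert 7, under its limit, through a median of 6.53 to 9.62 in desert 1. Those extremes are the F2 and the 0 library of the same letter, F. Wnt7b, a canonical ligand found in mammary epithelium and in macrophages, ranged from 2.21 through a median of 5.76 to 7.82. Both ends of that range lay in letter A, with inflamed 3 and inflamed 4 at 2.21 and 2.24, under their detection limits, and excluded 1 at 7.82. Wnt2 stood above 3.64 in 1 deep library only, inflamed 13 of letter L, where it measured 6.90 from 144 counts. The other deep letter L library, inflamed 2, measured 0.13, under its limit. Of the shallow libraries, 1 exceeded its limit for Wnt2, excluded 4 of another letter L code (8.20 from 41 counts, limit 6.75). The non-canonical co-receptor Ror2 ranged between 2.71 and 6.90 and was above the limit in 15 libraries.

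Of the secreted Wnt inhibitors, Sfrp1 was measured in every deep library and ranged from 3.24 in desert 6 through a median of 5.44 to 9.14 in inflamed 4. It was also high in inflamed 3, at 9.09, in excluded 1, at 8.49, and in desert 2 of letter G, at 8.04, while the other 12 lay at or below 6.15. The intracellular genes were steadier. Ctnnb1, which encodes beta-catenin, ranged from 9.59 through 10.70 to 12.47, with its highest value in excluded 1 and its lowest in inflamed 4, both of letter A. Axin1, the scaffold of the destruction complex, stayed between 6.19 and 7.09, a spread (SD 0.24, n = 16) that ranked 564 of 568 expressed genes. Apc, the other scaffold gene, was above the limit in 12 libraries and lay between 1.49 and 3.95.

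Among the Notch receptors, Notch1 ranged from 4.29 in desert 5 through 6.18 to 8.77 in inflamed 4, and Notch2 from 4.74 in inflamed 3 through 7.27 to 8.37 in inflamed 8. The library pair with the highest Notch1 had the lowest Notch2. Of the ligands, Jag1 ranged from 4.48 through 6.42 to 7.71 and Dll4, the ligand of sprouting vessels, from 4.80 through 6.13 to 7.31. Jag2, a ligand of epithelial cells, measured 9.40 and 9.58 in inflamed 3 and 4 and at most 4.73 in the other 14. It was below the limit in 3 libraries, and the range over all 16 was at least 142-fold with those set at their limit. Of the shallow libraries, 3 exceeded their limits for Jag2. They were inflamed 6, of another letter A code (8.23, limit 5.14), and inflamed 7 and 9 of letter H (8.58 and 7.43, limits 8.03 and 7.31). Maml2, a Mastermind-like coactivator, stood at 8.09, 8.09 and 8.16 in inflamed 1, inflamed 8 and inflamed 10, and measured at most 6.41 elsewhere. The target Hes1 ranged from 5.99 through 7.32 to 8.45, and Hey1 from 3.34 through 4.96 to 6.90. The glycosyltransferase Mfng, which modifies Notch receptors, lay close to the limit, between 2.01 and 4.15.

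Id4, a helix-loop-helix protein that lacks a DNA-binding region and holds E proteins inactive, had the largest SD of the 568 expressed genes (3.42, n = 16). Its level ranged from 1.24 in desert 6 through a median of 5.14 to 10.94 in inflamed 4, with recovered counts between 5 and 8704. It lay below the detection limit in 4 libraries, desert 6 among them, so that the range was at least 480-fold when such values were set at their limit. By letter, the 3 A libraries measured 7.93, 10.84 and 10.94, the 4 C libraries 8.86, 8.64, 2.95 and 1.24, and the 2 F libraries 1.63 and 9.55. The 3 G libraries measured 8.26, 3.28 and 3.18, the 2 H libraries 4.41 and 2.71, and the 2 L libraries 2.49 and 5.88. High and low libraries thus occurred inside letters C, F and G. The 2 libraries of a shared code lay close together, with Id4 differing by 0.10 in the letter A pair and by 0.22 in the letter C pair. By SD, Jag2 ranked 9 of 568 (2.10), Sfrp1 10 (1.94), Wnt7b 17 (1.79) and Wnt5a 64 (1.42).

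**Figure D2:**
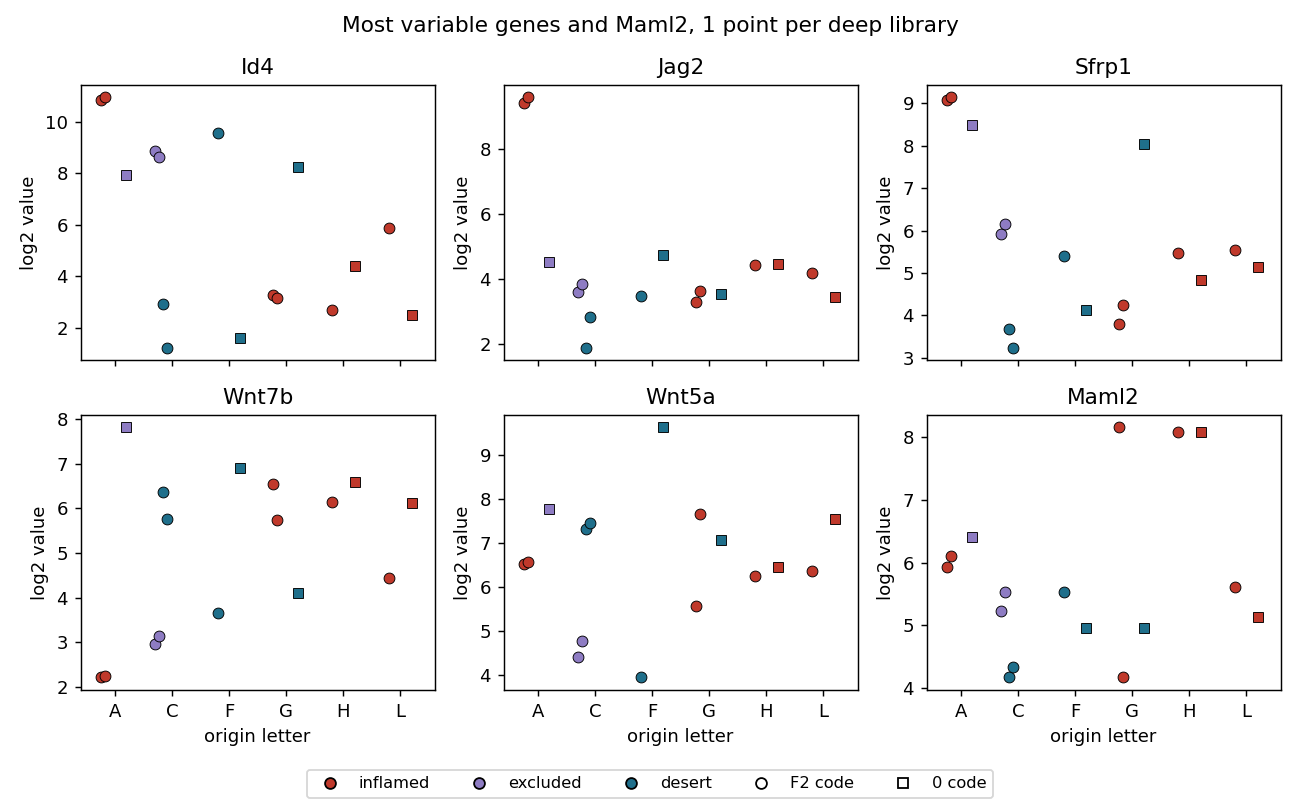
Log2 levels of the 5 genes with the largest SD and of Maml2 in the 16 deep libraries, by origin letter, with 1 point per library, circles for F2 codes left of squares for 0 codes, and colours for the infiltrate class. Id4 ranges between 1.24 and 8.86 within letter C, and Jag2 stands at 9.40 and 9.58 in the inflamed letter A libraries alone.

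Among the FGF genes, Fgfr1, a receptor tyrosine kinase, was above the limit in all 16 and ranged between 3.92 and 6.66, highest in desert 2 and lowest in desert 6. Fgf18, a ligand, was above it in 10 and ranged between 0.44 and 4.28. Fgf9 and Fgf13, an FGF-like protein that stays inside the cell, did not count as expressed.

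Infiltrate class was compared first, since it is the grouping that the labels give. In the limma fit over all 750 genes with Benjamini-Hochberg adjustment, 0 of the 35 genes passed an adjusted p of 0.05 between inflamed and desert tumours, where 0.267% of all genes did, and 2 had an unadjusted p under 0.05, where 10.7% of all genes did. Between inflamed and excluded tumours 0 of the 35 passed, against 0.0% of all genes, with 3 at an unadjusted p under 0.05 against 8.53%. Between excluded and desert tumours 0 passed, against 0.0%, with 2 at an unadjusted p under 0.05 against 6.13%. A fit with voom weights on the recovered counts also called 0 of the 35 in each. The 3 comparisons share libraries. The median difference of the 35 was 0.24 between inflamed and desert tumours, against 0.12 over all 750 genes. It was 0.36 between inflamed and excluded tumours (0.0044 over all genes) and 0.19 between excluded and desert tumours (0.13). The background genes that set the detection limit shifted by a median of 0.38, 0.95 and -0.57 in the same order. Over the expressed genes of the 35 the medians were 0.16, 0.17 and 0.38, against 0.035, -0.15 and 0.21 over all expressed genes. Deep excluded libraries held 718971 to 1090063 counts, inflamed ones 163054 to 1093001 and desert ones 107677 to 1110314. The part of depth in these medians was not tested.

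The smallest p between inflamed and desert tumours belonged to Maml2. It ranged from 4.18 through a median of 6.02 to 8.16 in 8 inflamed libraries, against 4.96, 4.96, 4.17, 4.34 and 5.53 in desert ones. Inflamed libraries reached above every desert one, but the groups overlapped (difference 1.62, SE 0.63, limma adjusted p = 0.401). The Wnt inhibitor Sfrp4 ranged from 3.04 through 3.84 to 4.89 in inflamed libraries, against 1.92, 4.15, 1.31, 2.92 and 4.07 in desert ones. Those groups overlapped as well (difference 1.14, SE 0.57, adjusted p = 0.525). For Jag2 the difference of 2.00 (SE 1.03, adjusted p = 0.529) came with inflamed values of 3.28, 4.30 and 9.58 (lowest, median, highest) against desert values of 4.73, 3.55, 1.89, 2.82 and 3.49. Without inflamed 3 and 4 the difference was 0.60. Wnt3a differed by 1.39 (SE 0.64, adjusted p = 0.441) without exceeding the detection limit in any library.

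Between inflamed and excluded tumours, the Notch ligand Dll1 ranged from 3.10 through 3.71 to 5.40 in inflamed libraries, against 5.84, 5.37 and 5.51 in excluded ones. Only inflamed 13 reached into the excluded range (difference -1.45, SE 0.67, adjusted p = 0.581). Wnt4, a ligand of mammary side branching, ranged from -0.28 through 2.72 to 3.42 in inflamed libraries, against 2.43, 4.47 and 4.57 in excluded ones, of which the last 2 share a code (difference -1.47, SE 0.70, adjusted p = 0.587). Fgf18 differed by 1.21 (SE 0.56, adjusted p = 0.583), with 2.94, 3.43 and 4.28 in inflamed libraries (lowest, median, highest) against 4.16, 0.44 and 2.21 in excluded ones. Tcf3 differed by 1.42 (SE 0.42, adjusted p = 0.503) at levels below the limit.

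Between excluded and desert tumours, Tcf3 measured 0.95, 0.97 and -0.66 in excluded libraries and 1.55, 1.98, 1.89, 2.38 and 2.81 in desert ones. These did not overlap, although 1 library of all 16 exceeded its limit (difference -1.70, SE 0.45, adjusted p = 0.441). Id4 measured 7.93, 8.86 and 8.64 in excluded libraries, against 1.63, 8.26, 2.95, 1.24 and 9.55 in desert ones. The excluded values were close to each other and the desert values lay on both sides of them (difference 3.75, SE 2.18, adjusted p = 0.859). Here, as for every gene in this comparison, the last 2 excluded values come from 1 shared code. Wnt4 differed by 1.71 (SE 0.76, adjusted p = 0.731), with 1.71, 2.81, 1.77, 1.24 and 3.07 in desert libraries. Fgf18 differed by -1.21 (SE 0.61, adjusted p = 0.809), with 3.75, 3.07, 3.35, 3.16 and 4.07 in desert libraries.

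Tumours of letter A differed from the mean of the other 5 letters in 7 of the 35 genes, 5 higher and 2 lower. Of all 750 genes 22.4% passed in this comparison, 8.67% higher and 13.7% lower, so the share of the 35 lay near that of all genes. At an unadjusted p under 0.05 there were 10 of the 35, against 34.9% of all genes. The median difference was 0.47 over the 35 and -0.22 over all genes, and 0.51 over the 25 expressed ones against -0.45 over all expressed genes. The background genes that set the detection limit shifted by a median of 0.33 in letter A. The part of depth or background in these letter A medians was not tested. Of the 3 letter A libraries, given below in the order excluded 1, inflamed 3 and inflamed 4, the last 2 share 1 code, and their counts were the most alike of any deep pair within a class (chi-square over its degrees of freedom 2.19, beyond sampling noise). When the libraries of 1 code were averaged, 0 of the 7 passed, and without either inflamed 3 or inflamed 4 likewise 0 passed.

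Notch1 measured 7.69, 8.44 and 8.77 in letter A, against 4.29 to 6.73 with a median of 6.07 in the other letters. All 3 letter A libraries lay above all 13 others, by a fitted 2.32 (SE 0.46, limma adjusted p = 0.0074). Jag2, its ligand, measured 4.53, 9.40 and 9.58 in letter A, against 1.89 to 4.73 with a median of 3.61. Excluded 1 lay within the range of the other letters, and the difference of 4.06 (SE 0.81, adjusted p = 0.0074) was 0.75 without the shared code. The shallow inflamed 6, of another letter A code, was outside this fit. It measured 8.23 for Jag2 and 7.19 for Notch1, above its limit of 5.14. In the shallow inflamed 5, of a further letter A code, both genes were under the limit. Notch2 measured 7.11, 4.74 and 4.92, against 6.34 to 8.37 with a median of 7.55. Here too excluded 1 lay among the other letters, and the difference of -1.87 (SE 0.51, adjusted p = 0.022) was -0.36 without the shared code.

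Of the Wnt genes, Sfrp1 measured 8.49, 9.09 and 9.14 in letter A, against 3.24 to 8.04 with a median of 5.15 in the other letters. The groups did not overlap (difference 3.83, SE 0.80, adjusted p = 0.0090). Wnt5b, a non-canonical ligand, measured 5.81, 4.67 and 4.81 in letter A, against 2.73 to 4.18 with a median of 3.76 (difference 1.52, SE 0.35, adjusted p = 0.013). Wnt11, a further non-canonical ligand, measured 3.55, 3.81 and 4.13 in letter A, against 0.75 to 3.43 with a median of 1.89. It exceeded the limit in all 3 letter A libraries and in 1 of the others (difference 1.85, SE 0.40, adjusted p = 0.011). Wnt10a, a canonical ligand of skin appendages, went the other way, with 3.02, 3.17 and 2.94 in letter A, against 4.12 to 5.93 with a median of 4.95. It exceeded the limit in 1 letter A library and in all 13 others (difference -1.99, SE 0.40, adjusted p = 0.0076). In these 4 genes, as in Notch1, excluded 1 lay on the same side as the shared code, and without that code the differences were 3.41 for Sfrp1, 2.23 for Wnt5b, 1.58 for Wnt11, -2.01 for Wnt10a and 1.70 for Notch1. None of them passed with that 1 library left.

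**Figure D3:**
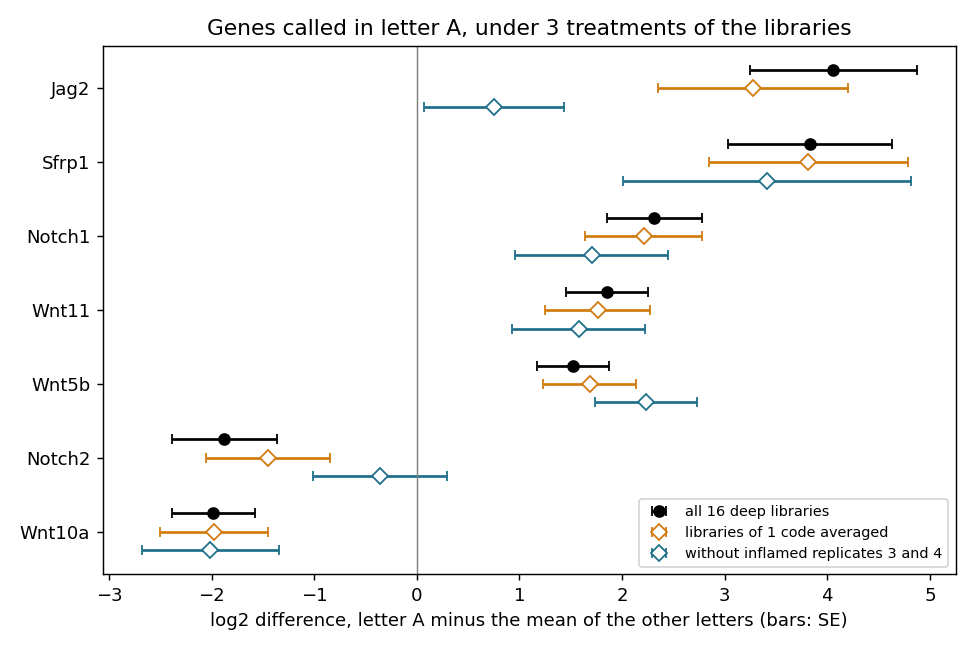
Log2 difference between letter A and the mean of the other letters for the 7 genes called, with bars of 1 SE, from all 16 deep libraries (black), with libraries of 1 code averaged (orange) and without inflamed 3 and 4 (blue). Filled circles passed an adjusted p of 0.05 and open diamonds did not, and the Jag2 and Notch2 differences shrink to 0.75 and -0.36 without the shared code.

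Marker genes of other cell types moved with the letter A pair. The mean of 13 macrophage and monocyte genes was 6.0 in inflamed 3 and 4 and 7.5 in excluded 1, against 7.2 to 9.7 in the other 13 libraries. The mean of 6 expressed neutrophil genes was 3.6 in inflamed 3 and 4 and 6.9 in excluded 1, against 5.1 to 8.0. The 7 endothelial genes averaged 5.6 in inflamed 3 and 4 and 6.9 in excluded 1, within the 5.1 to 7.5 of the others. The 9 fibroblast and stroma genes averaged 5.66 and 5.72 in inflamed 3 and 4 and 7.01 in excluded 1, against 5.86 to 7.38. The 11 expressed proliferation genes averaged 7.99 and 8.04 in inflamed 3 and 4 and 7.24 in excluded 1, against 6.50 to 7.61. The pair thus had the lowest stromal and the highest proliferation means of the 16. The 2 expressed epithelial genes, Erbb2 and Esr1, averaged 4.34 in excluded 1 and 4.44 and 4.54 in inflamed 3 and 4, against 2.60 to 4.16. This mean leaves out Epcam, Cdh1 and Lamb3, which exceeded the limit in 7, 3 and 3 deep libraries and so did not count as expressed. By the values given above, Epcam and Lamb3 set all 3 letter A libraries further apart than this mean does. Cdh1 did so for inflamed 3 and 4 only, since excluded 1 (3.40) lay within the range of the others (at most 3.48). Of 6 B cell genes 0 counted as expressed, and the T cell, adipose and housekeeping means of the pair lay within the range of the other letters. The part of cell composition in the letter A differences was not tested. Among other genes of these pathways, 4 of 31 listed Wnt genes, 2 of 22 Notch genes, 2 of 13 Hedgehog genes and 6 of 26 FGF genes had values. Of those 14, 1 rose and 1 fell in letter A and 0 passed in any other comparison. Hras, a small GTPase downstream of FGF receptors, rose by 1.96 (SE 0.34, adjusted p = 0.0042), with 3.05, 3.84 and 3.94 in letter A against 0.49 to 2.40 elsewhere, though it exceeded the limit in 5 of 16 libraries. Gas1, a Hedgehog co-receptor, fell by 2.77 (SE 0.79, adjusted p = 0.027), with 9.25, 6.55 and 6.42 in letter A against 8.81 to 12.41, so that excluded 1 lay within the range of the others.

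Letters C, G, H and L were compared with the other letters in the same way. Letter F was not contrasted on its own, although it had 2 deep libraries, as did H and L. For letter C, 0 of the 35 passed, against 0.133% of all genes, and 8 had an unadjusted p under 0.05, against 4.93%. In 30 of the 35 the letter C mean was the lower one, but the share of all genes lower in letter C was not examined. The median difference was -0.51 over the 35, against -0.18 over all genes. Over the expressed genes of the 35 it was -0.49, against -0.097 over all expressed genes. The background genes that set the detection limit shifted by a median of -0.42 in letter C. The part of depth or background in these letter C medians was not tested. The smallest p in letter C were those of Sfrp4 (difference -1.73, SE 0.49) and Wnt11 (-1.29, SE 0.36), both at an adjusted p of 0.617. Sfrp4 measured 1.73, 2.71, 1.31 and 2.92 in letter C, of which the first 2 share a code, against a median of 4.02 in the other letters. Wnt11 lay under the detection limit in every letter C library. For letter H, 0 passed, against 0.0% of all genes, and 1 had an unadjusted p under 0.05, against 14.3%. It was Maml2, at 8.09 in both H libraries and a median of 5.38 in the others, among which inflamed 10 of letter G also measured 8.16 (difference 2.62, SE 0.73, adjusted p = 0.222). Of the 16 fits that each left out 1 library, Maml2 passed in 1, at a limma adjusted p of 0.014. That fit left out inflamed 10, the highest library outside letter H, and it called 8 of all genes. Notch2 in letter H differed by 1.28 (SE 0.60, adjusted p = 0.345).

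For letters G and L 0 passed, against 0.0% of all genes in each, and 0 of the 35 had an unadjusted p under 0.05, against 1.07% for G and 1.6% for L. The smallest p in letter G were those of Wnt10a (difference 0.76) and Jag2 (-1.16), and in letter L those of Ror2 (-1.83) and Dkk1 (-1.55), all at an adjusted p of 0.998. The test over all 6 letters together called 0 of the 35, against 0.4% of all genes, with 9 at an unadjusted p under 0.05, against 18.4%. Its smallest adjusted p were 0.121 for Notch1 and Wnt11, 0.144 for Jag2 and 0.205 for Wnt10a.

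Code form gave 3 calls in the 35 genes, against 4.13% of all genes. Of these 2 were higher in F2 codes, against 3.47% of all genes, and 1 was lower, against 0.667%. There were 8 of the 35 at an unadjusted p under 0.05, against 18.0%. Depth and form cannot be told apart, since the 5 libraries of 0 codes held 982205 to 1110314 counts and the 11 of F2 codes 107677 to 976271. The 75 background genes shifted by a median of 1.29 between F2 and 0 codes, and 25 of the 31 calls in all genes were of genes that were not expressed. Wnt3a ranged from 0.27 through 1.49 to 2.71 in F2 codes, against -0.38, 0.53, -2.54, -0.39 and -0.10 in 0 codes. That is a difference of 2.15 (SE 0.45, adjusted p = 0.031) between values that all lay under the detection limit, from 2 to 26 counts in F2 and 1 to 7 in 0 codes. Ihh ranged from 0.08 through 2.28 to 3.31 in F2 codes, against 0.62, 0.31, 0.27, -0.16 and 0.13 in 0 codes (difference 1.84, SE 0.44, adjusted p = 0.032), again all under the limit.

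Wnt2b, a canonical ligand, was the 1 expressed gene of the 3 and differed in the opposite direction. It ranged from 1.54 through 2.90 to 3.81 in F2 codes, against 4.98, 4.58, 4.09, 4.04 and 3.60 in 0 codes. The groups overlapped only through inflamed 8 of the F2 codes and inflamed 2 of the 0 codes (difference -1.39, SE 0.34, adjusted p = 0.033). It exceeded the limit in 6 of 11 F2 libraries and in 5 of 5 libraries of 0 codes. Leaving out any one of excluded 1, inflamed 1, inflamed 2, inflamed 13, desert 1 or desert 2 ended the Wnt2b call, with adjusted p up to 0.088. It also ended with all 24 libraries (difference -0.46, adjusted p = 0.658), expressed genes only (-1.39, 0.095), quantile normalisation (-1.51, 0.309), a pseudocount of 10 (-0.75, 0.087) or values below the limit set at it (-0.84, 0.052).

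**Figure D4:**
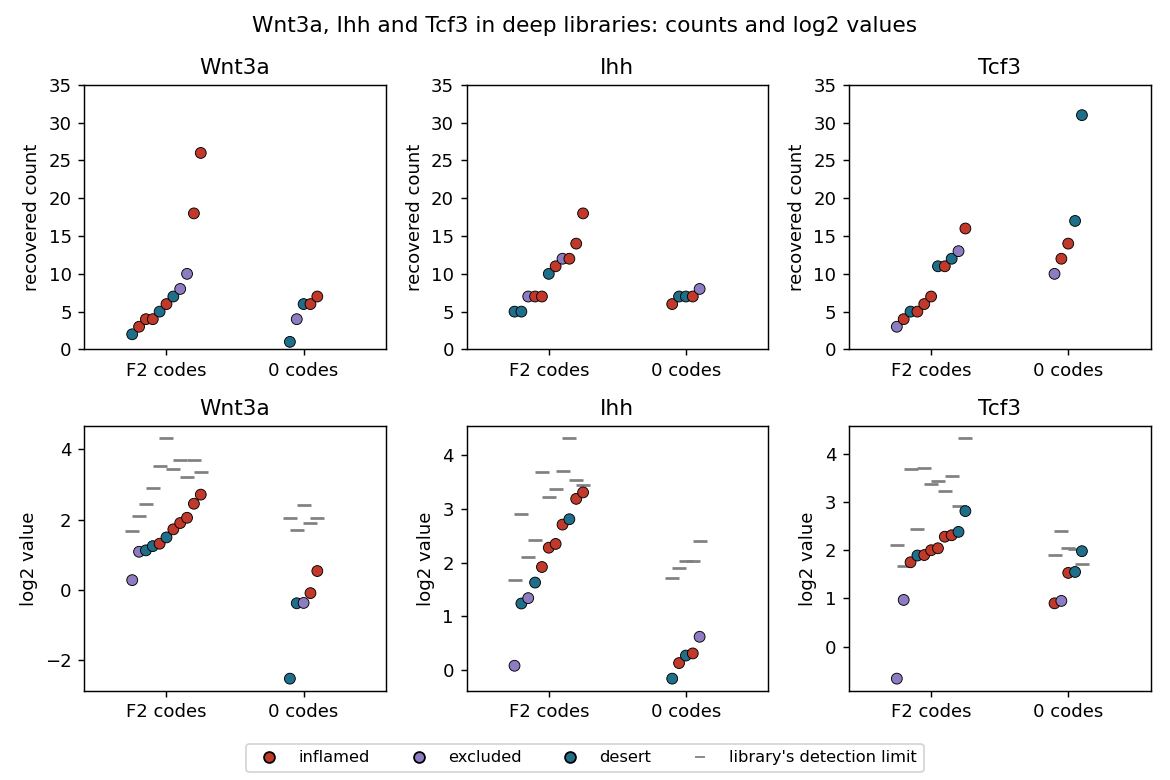
Recovered counts (upper row) and log2 values (lower row) of Wnt3a, Ihh and Tcf3 in the deep libraries, F2 codes left of 0 codes, in ascending order within each form, with 1 point per library coloured by class and a dash at that library's own detection limit. Wnt3a and Ihh lie under the limit in all 16 libraries, and Tcf3 exceeds it in 1.

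The relation of Notch ligands and receptors to the target genes was examined over the 14 codes, with libraries of 1 code averaged. These relations were picked with the data in view, and codes of 1 letter may not be independent, although the permutations treat all 14 as exchangeable. How many other expressed genes follow Hes1 or Hey1 as closely was not examined. The relations are therefore not shown to be particular to Notch genes. In 16 relations (6 ligands and receptors and the endothelial and stromal lists, each with Hes1 and Hey1), p-values came from 100000 permutations and were adjusted by Benjamini-Hochberg. Hes1 followed Jag1 with r = 0.90 (permutation p = 3e-05, adjusted 0.00048) and rho = 0.75 (adjusted permutation p = 0.012). Without the 2 codes farthest from the Jag1 median r was 0.78, and within the 9 F2 codes it was 0.91, while the 5 codes of form 0 were too few. High values of both genes met in excluded 1 (Jag1 7.71, Hes1 8.45) and low values in inflamed 11 (4.48 and 5.99).

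Hes1 also followed Notch1, with r = 0.75 (adjusted permutation p = 0.011) and rho = 0.79 (adjusted 0.0084), and r was 0.80 without the 2 farthest codes and 0.67 within F2 codes. With Dll1 it gave r = 0.75 (adjusted permutation p = 0.011) and rho = 0.82 (adjusted 0.0084), with r = 0.67 without the 2 farthest codes and 0.71 within F2 codes. Hey1 followed Dll1 with r = 0.71 (adjusted permutation p = 0.024) and rho = 0.75 (adjusted 0.012), and r was 0.81 without the 2 farthest codes and 0.93 within F2 codes. The other 12 relations did not pass. Among them were the endothelial list with Hes1 (r = 0.49, adjusted permutation p = 0.166) and with Hey1 (r = 0.09), the stromal list with Hes1 (r = 0.38) and Notch2 with Hes1 (r = 0.08).

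**Figure D5:**
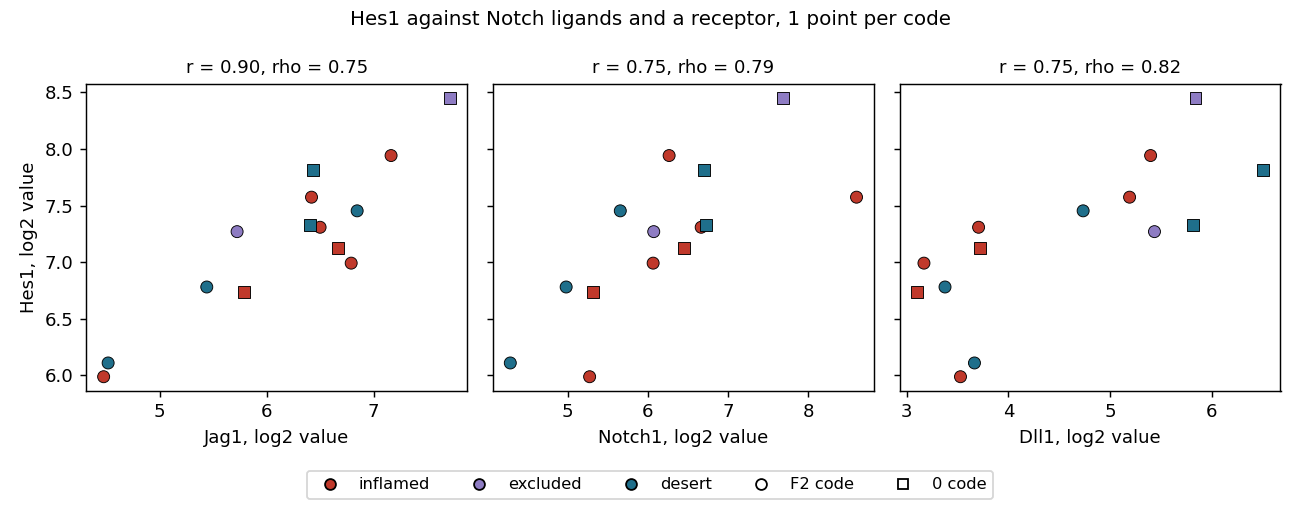
Log2 level of Hes1 against Jag1, Notch1 and Dll1 over 14 codes, with circles for F2 codes, squares for 0 codes and colours for the infiltrate class. Hes1 rises with each, most closely with Jag1 (r = 0.90).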

How the data were processed

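NanoString counts of 750 genes in 24 libraries were used as the log2 normalised values that the authors deposited, and 34 further rows held no values. The labels' protocols give Trizol extraction, while the normalisation rule is not given in the sources used here. Undoing the log2 and 1 factor per library returned whole counts for 100% of values within 0.001, and these recovered counts set depth, the detection limit and the voom alternative. Deep libraries (at least 100000 counts) entered linear models (R 4.3.3, limma 3.58.1, moderated by eBayes, 2-sided, 1 fit each for class, letter and code form, no covariates), with Benjamini-Hochberg adjustment over all 750 genes and a threshold of 0.05. The class fit was tested on simulated independent normal values, for inflamed minus desert alone. The simulation held no shared codes, depth differences or detection limit, and the letter and code form fits were not tested in this way. Genes named with values were the list's markers, every gene called, those with the smallest p in each comparison (4 per class comparison and letter test, 2 otherwise), and those highest in level or SD. Genes and lists were chosen with earlier results of these data known. Alternatives were all 24 libraries (desert 3 and 4 averaged), expressed genes only, recentring, quantile normalisation, a pseudocount of 10, a floor at the limit, another variance model, voom weights, averaged codes, letter or form terms, and leaving out each library. Replicate numbers follow the order of deposit. Counting error alone limits genes with few counts. Promoter windows are from RefSeq (GRCm38.p6).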

Additional observations from a re-analysis of the deposited data

Results flagged for a closer look

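Within 1 letter, the change between F2 and 0 codes ran in opposite directions for 4 of the 5 genes with the largest SD, with a log2 difference of at least 1 each way. These differences rest on 1 or 2 F2 libraries against 1 library of a 0 code per letter and were not tested. Some of the values lay below their library's detection limit, as given beside them. Id4 differed (F2 minus 0) by 7.92 in letter F, 3.39 in letter L and 2.96 in letter A, but by -5.03 in letter G and -1.7 in letter H. The 0 code of letter F, 1 of 2 F2 libraries of letter G and the F2 library of letter H were below their limits, and with values set at the limit the differences were 7.52, -4.91 and -0.69. Jag2 differed by 4.96 in letter A and by -1.24 in letter F, where the F2 library was below its limit and the difference at the limit was -0.41. Sfrp1 differed by 1.28 in letter F and by -4.02 in letter G. Wnt7b differed by 2.04 in letter G, and by -5.59 in letter A, -3.24 in letter F and -1.69 in letter L. The F2 libraries of letters A and F were below their limits, and at the limit the differences were -4.29 and -2.58.

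A library stood apart from the others of its group in 2 of 100 groups examined, fewer than the 1 in 20 that chance gives. Within letter C, Fzd8, a Frizzled receptor, measured 2.72 in desert 6 with the nearest of the other 3 libraries at 2.18. Also in letter C, Mfng measured 2.01 in desert 5 with the nearest at 3.5. Both values were below that library's detection limit, 2.91 in desert 6 and 2.43 in desert 5.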

How the results depend on the processing

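Among 907 alternative values of 34 named results, 840 kept their direction and their side of the threshold, 61 lost a call, 6 gained one and 0 reversed. Only the 10 genes called in the main fits could lose a call, so all 61 losses fell on them. The results not called there counted as kept while they stayed uncalled. Those of the test over all letters have no direction and could not reverse. The cause of each change below was not tested. Letter A called 168 genes and 7 of the 35; all 24 libraries gave 24 and 2, averaged codes 6 and 0, leaving out the shared code 9 and 0, and leaving out 1 library 14 to 298 and 0 to 11, with 0 of the 35 without inflamed 3 or inflamed 4 and 11 without excluded 1. Code form called 31 genes and 3 of the 35. Expressed genes only, quantile normalisation and a pseudocount of 10 gave 0 and 0, recentring 54 genes, a letter block 77 genes, no shared code 10 genes, a floor 130 genes and 5 of the 35, and leaving out 1 library 0 to 42 and 0 to 4. Inflamed minus desert called 2 genes, but 0 with all libraries, averaged codes or no shared code, 1 with recentring, a floor or voom, and 0 to 3 when 1 library was left out. Inflamed minus excluded gave 0 to 1 when 1 library was left out, and excluded minus desert gave 1 with a floor. Letter C called 1 gene, but 0 with all libraries, expressed genes only, averaged codes, recentring, voom or no shared code. A code form term gave 15 genes there and 3 of the 35 (Wnt11, Fgf9, Ihh), and leaving out 1 library 0 to 2 and 0 to 1 (Jag2 without excluded 1). With 1 library left out, letter H gave 0 to 8 genes and 0 to 1 of the 35 (Maml2 without inflamed 10), and letter L 0 to 1 and 0 to 1 (Wnt2 without inflamed 2). The test over all letters called 3 genes, but 1 with all libraries, expressed genes only, averaged codes or no shared code, 5 with recentring, 10 with quantile normalisation, 6 with voom, 28 with a code form term, which called 1 of the 35 (Wnt11), and 1 to 149 and 0 to 4 when 1 library was left out. Leaving out excluded 1 gave the 4, Jag2, Notch1, Notch2 and Wnt11, and leaving out desert 2 or inflamed 10 gave 1.

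The correlation of Notch2 with Hes1 over codes turned to -0.29 after recentring, and that of Notch2 with Hey1 to 0.37 without the 2 farthest codes. The endothelial list with Hey1 turned to -0.0496 without the 2 farthest codes, and the stromal list with Hey1 to 0.0860 after recentring. The replicate numbers only follow the order of deposit, so they pair no libraries across groups. Letters A, F, G, H and L each hold both code forms, while letter C holds F2 codes only. The main fit of code form did not use this link by letter. An alternative fit with letter as a random block called 4 of the 35 between the forms. Depth limits the genes with few counts, since shallow libraries had detection limits of 5.14 to 8.40.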

Other observations

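Other genes of these pathways differed between classes without passing. Gas1, a Hedgehog co-receptor, lay between 6.42 and 10.06 in inflamed libraries (median 9.31), against 9.25 to 11.92 in excluded ones and 8.81 to 12.41 in desert ones. The fitted difference was -2.19 (SE 0.90, limma adjusted p = 0.526) between inflamed and excluded tumours and -1.86 (SE 0.76, adjusted p = 0.401) between inflamed and desert tumours. Inflamed 3 and 4, which share a code, measured 6.55 and 6.42 and the other 6 at least 8.81, and without that code the differences were -1.45 (adjusted p = 0.606) and -1.12 (adjusted p = 0.483). Ccnd1, the cyclin D1 gene and a known Wnt target, lay between 8.10 and 10.09 in inflamed libraries, against 9.86 to 10.96 in excluded ones and 9.71 to 10.94 in desert ones (difference from desert -1.01, SE 0.38, adjusted p = 0.397). It measured 8.37 and 8.10 in the libraries of the shared code and at least 9.29 in the other inflamed ones, and without that code the difference was -0.64 (adjusted p = 0.436). Gli1, a Hedgehog target, exceeded the detection limit in 0 of 16 deep libraries.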
